A study of Mus musculus with 12 samples.

Results

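Collagen genes were taken as the features of a bulk RNA-seq table of mouse ventricle whose symbol is Col, digits, a, digits, and that reached 10 or more counts in at least 3 of the 12 libraries. Of 54949 features, 44 carried such a symbol and 34 met the minimum: 8 fibrillar, 6 basement membrane, 4 beaded, 6 FACIT (fibril-associated collagens with interrupted triple helices) and 10 others. The 10 left out were the fibrillar Col2a1, Col11a1 and Col24a1, the beaded Col6a4 and Col6a5, the FACIT Col9a1, Col9a3 and Col19a1, and Col10a1 and Col17a1. Col9a2 and Col25a1 reached the minimum in exactly 3 libraries, and Col9a3 fell short with 2. Among the 34, the 4 members Col8a2, Col9a2, Col25a1 and Col26a1 had 77 to 100 counts over all 12 libraries and were too low for the test across genes, which covered the other 30.

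The study addressed heart failure with preserved ejection fraction, in which the ventricle relaxes poorly while its pumping fraction is kept. Its design text describes male C57BL/6N mice aged 8 weeks at the start, wild type in the labels, given a high-fat diet and L-NAME at 0.5 g/L in drinking water, or normal diet and water, for 5 weeks. L-NAME blocks nitric oxide synthases, and the pair of treatments is used together as a model of this syndrome. RNA came from ventricles with the atria removed. There were 6 libraries whose columns are named HF and 6 whose columns are named con, and the labels contradict those names: the HF-named libraries carry titles of the control group with normal diet and water, and the con-named libraries carry titles of the treated group with the high-fat diet and L-NAME. Which group of mice was treated can therefore not be told from the labels, and the groups are called HF-named and con-named throughout. The design text gives fewer bulk samples per group than the 6 that are labelled. No label says that the 6 libraries of a group came from separate mice, so each p-value measures the spread between these samples, which may in part be technical.

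Collagens are trimeric proteins whose chains wind into a triple helix. Fibrillar collagens I and III carry the tensile load of the heart between its muscle bundles and are made mainly by fibroblasts, and stiffening of the ventricle is commonly linked to them. Collagen IV forms the sheet-like network of the basement membranes that wrap cardiomyocytes and capillaries, beaded collagen VI links that sheet to the interstitium, and FACIT collagens coat the surface of fibrils.

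Promoter windows, 250 bases before to 50 bases after the annotated start (RefSeq, build GRCm38.p6), were found for 27 of the 34 members. The 5 shown are those of the most abundant pair, Col4a1 and Col4a2, of Col1a2 and Col3a1 from the interstitial fibrils, and of Col5a3, a gene that differed between the groups. Capitals mark the letters TATAAA of the classical core promoter box on either strand. They also mark the box spelled CCAAT and the box for Sp-type factors spelled GGGCGG, again on either strand, and no marked motif overlaps another in these 5 windows.
Col4a1, chr8:11312777-11313076, minus strand: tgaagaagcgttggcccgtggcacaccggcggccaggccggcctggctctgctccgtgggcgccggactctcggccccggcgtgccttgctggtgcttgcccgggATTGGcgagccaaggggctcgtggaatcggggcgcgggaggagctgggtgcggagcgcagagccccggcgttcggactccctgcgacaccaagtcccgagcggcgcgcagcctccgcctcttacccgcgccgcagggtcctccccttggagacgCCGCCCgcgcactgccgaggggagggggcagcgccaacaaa
Col4a2, chr8:11312555-11312854, plus strand: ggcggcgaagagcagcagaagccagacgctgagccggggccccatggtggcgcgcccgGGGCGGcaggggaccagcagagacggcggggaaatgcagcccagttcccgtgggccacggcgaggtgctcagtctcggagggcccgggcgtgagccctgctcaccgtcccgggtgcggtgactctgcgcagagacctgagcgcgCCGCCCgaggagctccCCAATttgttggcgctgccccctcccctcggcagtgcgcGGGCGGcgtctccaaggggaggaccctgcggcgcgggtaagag
Col1a2, chr6:4505368-4505667, plus strand: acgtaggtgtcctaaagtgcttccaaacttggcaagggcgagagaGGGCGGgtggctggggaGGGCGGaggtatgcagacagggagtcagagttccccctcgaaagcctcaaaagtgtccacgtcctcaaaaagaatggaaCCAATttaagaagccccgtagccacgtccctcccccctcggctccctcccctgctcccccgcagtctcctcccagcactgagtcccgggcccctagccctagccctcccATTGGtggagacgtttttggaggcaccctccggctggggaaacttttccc
Col3a1, chr1:45311288-45311587, plus strand: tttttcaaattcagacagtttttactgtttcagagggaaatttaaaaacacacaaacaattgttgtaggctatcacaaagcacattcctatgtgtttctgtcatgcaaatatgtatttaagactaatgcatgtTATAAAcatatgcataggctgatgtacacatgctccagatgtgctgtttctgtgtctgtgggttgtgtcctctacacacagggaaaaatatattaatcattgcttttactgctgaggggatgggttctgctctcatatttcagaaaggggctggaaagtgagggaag
Col5a3, chr9:20815018-20815317, minus strand: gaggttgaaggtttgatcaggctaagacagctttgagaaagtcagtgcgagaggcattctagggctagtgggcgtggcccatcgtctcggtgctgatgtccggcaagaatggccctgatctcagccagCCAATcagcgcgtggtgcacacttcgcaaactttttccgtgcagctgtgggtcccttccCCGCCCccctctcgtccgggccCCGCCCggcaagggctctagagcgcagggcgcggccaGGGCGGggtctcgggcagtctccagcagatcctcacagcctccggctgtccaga
Col4a1 and Col4a2 lie head to head on chromosome 8: their starts, at 11312826 on the minus strand and 11312805 on the plus strand, overlap by 22 bases, and their windows share 78 bases. Neither of their windows holds the first of these motifs and both hold the others, at a share of G and C bases of 74.0% for Col4a1 and 73.7% for Col4a2. The Col3a1 window holds TATAAA alone of the 3 motifs, 117 bases before the start, at a share of G and C bases of 37.7%. Among the 29 windows of the 27 members, TATAAA was found in 3, against 13.6% of all 32851 windows of the genome. CCAAT was found in 9 of the 29, against 37.4% of all windows, and GGGCGG in 20 of the 29, against 35.7% of all windows. A match describes the letters of a window and is not evidence that a factor binds there.

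Library totals ran between 14443186 and 22048689 counts, and the 34 collagen genes took 0.141 ± 0.0243% of them in HF-named libraries and 0.156 ± 0.0279% in con-named libraries (SD, n = 6 each). In CPM, here counts scaled to library size with TMM factors, summed collagen was 1259 at its lowest, 1397 at the median and 1721 at its highest in HF-named libraries, against 1262, 1400 and 1787 in con-named libraries. The spread sat within the groups: HF-named libraries 1 and 3 and con-named libraries 2 and 5 stood at 1674 to 1787, and the other 8 stood at 1259 to 1402. Among the 20 members with 1000 or more counts, HF-named library 3 was the highest of its group 10 times and HF-named library 5 the lowest 11 times, while con-named library 5 was the highest of its group 12 times and con-named library 3 the lowest 10 times.

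Per length, the network collagens of basement membranes led the family. By the deposited FPKM, which is scaled to gene length and library total, Col4a2 averaged 48.3 ± 8.48 in HF-named libraries and 49.0 ± 9.09 in con-named libraries, and Col4a1 averaged 46.2 ± 11.7 and 48.4 ± 10.8 in HF-named and con-named libraries (SD, n = 6 each). These levels do not differ beyond their spread. Col6a1 followed at 17.7 ± 1.80 FPKM in HF-named and 21.0 ± 3.13 in con-named libraries, then Col3a1 at 15.9 ± 2.95 and 18.3 ± 4.69 and Col1a1 at 10.4 ± 1.59 and 12.6 ± 2.28 in the same order of groups. Col6a1 and Col3a1 overlap within their spread. Between 2 and 11 FPKM lay Col15a1, Col6a2, Col4a5, Col1a2, Col5a1, Col5a3, Col6a3, Col5a2 and Col8a1, and the other 20 members averaged under 2 FPKM. The deposited lengths count every annotated exon base, 12426 bases for Col1a2 against 5348 bases in its principal transcript, so the order depends on them. With principal transcript lengths, a choice made after seeing the data, Col4a1 and Col4a2 still led, and Col3a1, Col6a1, Col6a2 and Col1a2 all ranked ahead of Col1a1.

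**Figure D1:**
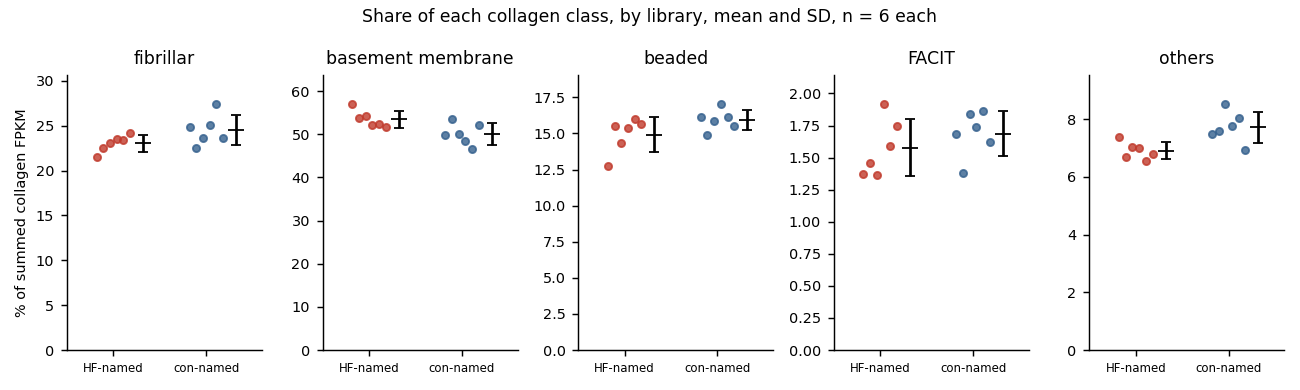
Share of each collagen class in the summed collagen FPKM of a library, in percent, for HF-named libraries (left) and con-named libraries (right). Points are libraries, and the bar beside them is the mean with its SD (n = 6 each). Basement membrane collagens hold 46.5% to 57.0% of the total in every library, and the groups overlap in all 5 classes.

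By class, basement membrane collagens made up 53.6 ± 1.97% of summed collagen FPKM in HF-named libraries and 50.1 ± 2.57% in con-named libraries (SD, n = 6 each). Fibrillar collagens made up 23.0 ± 0.947% and 24.5 ± 1.70%, and beaded collagens 14.9 ± 1.21% and 15.9 ± 0.723%, in HF-named and con-named libraries. The remaining classes made up 6.91 ± 0.296% (others) and 1.58 ± 0.222% (FACIT) in HF-named libraries, against 7.73 ± 0.533% and 1.69 ± 0.176% in con-named libraries. All 5 shares overlapped between the groups, and no test was run on them.

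Of the 30 collagen genes tested, 2 fell in HF-named libraries relative to con-named libraries and none rose, at an adjusted p under 0.05 (edgeR, quasi-likelihood test, adjusted after Benjamini and Hochberg over 15114 genes). They were Col14a1, a FACIT collagen of the fibril surface, and Col5a3, a chain of the minor fibrillar collagen V. The share lower was 6.67% of the collagen genes, against 5.05% of all genes tested, and the share higher was 0 of 30, against 8.28% of all genes. Counting both directions, 6.67% of the collagen genes passed against 13.3% of all genes. The median log2 fold change was -0.10 over the 30 collagen genes, 20 of them below 0, against -0.01 over all genes, of which 52.7% were below 0. No collagen gene separated the groups completely, whereas 5.36% of all genes did. At an unadjusted p under 0.05 there were 5 collagen genes (Col14a1, Col5a3, Col23a1, Col13a1 and Col4a5), against 28.6% of all genes. For 20 of the 30, the 95% interval of the log2 fold change lay within 0.5 of 0 on either side. In the authors' deposited table, the same 2 members lie below an adjusted p of 0.05, with log2 fold changes of -0.42 for Col14a1 and -0.28 for Col5a3. That is 2 of 34 members, where 5.11% of the 33183 genes with an adjusted p in the authors' deposited table lie below 0.05. These shares have unlike bases, since only 16005 features met the count minimum set for the members. With library totals in place of TMM factors, the median over all genes was -0.13 and that over the collagen genes -0.21, and 485 genes were higher and 2590 lower, against 1252 and 764 with TMM.

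**Figure D2:**
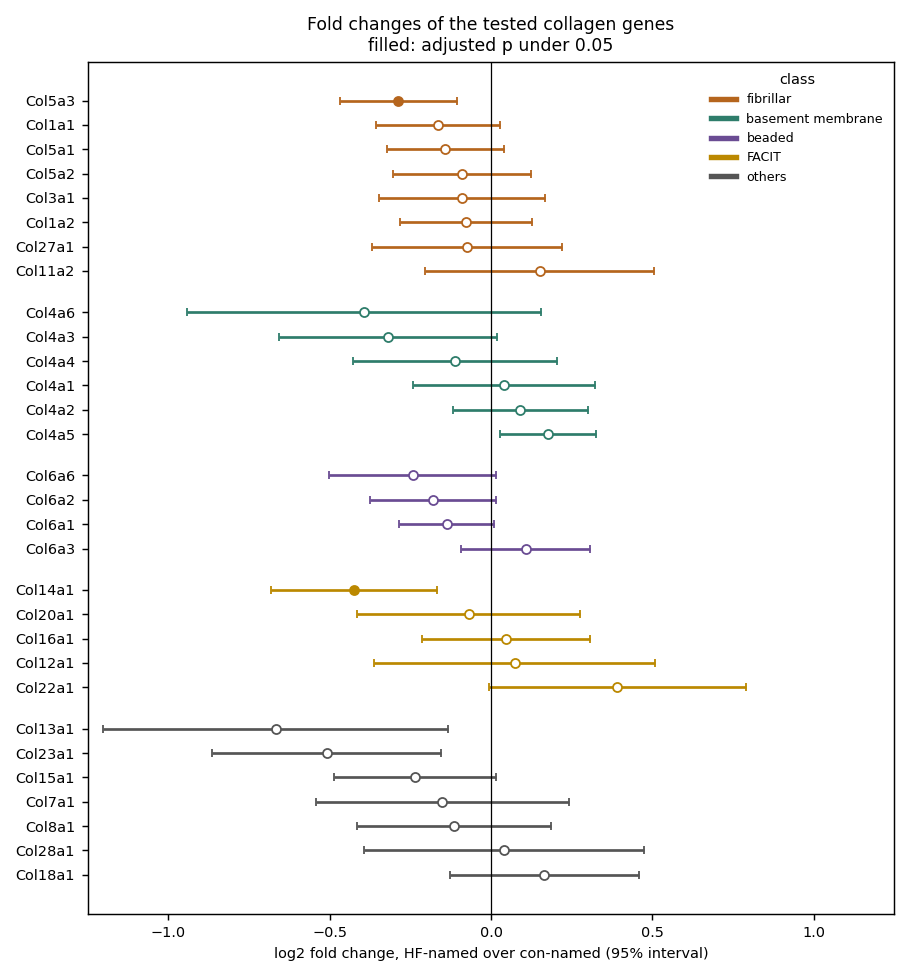
Log2 fold change, HF-named over con-named, of the 30 tested collagen genes with 95% intervals, grouped by class and ordered by value. Filled points are Col14a1 and Col5a3, the 2 genes with an adjusted p under 0.05, both below 0.

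As a check of the labelled tissue, Myh6, the main myosin of the adult mouse ventricle, was set beside atrial markers. Myh6 stood at 29246 to 35812 CPM in HF-named and 27479 to 32357 CPM in con-named libraries. The atrial markers together stood at 23.1 to 195 CPM and 63.5 to 127 CPM in the same order, most of it Nppa. HF-named library 1 was the highest of all 12 libraries in Nppa (188 CPM), Myl4 (4.18 CPM), Myl7 (1.79 CPM) and Sln (1.06 CPM). Whether that library held some atrial tissue was not tested. Markers of muscle and of non-muscle cells differed between the groups. Of all genes tested, 5.05% fell and 8.28% rose. Of 9 cardiomyocyte markers tested, 3 rose in HF-named libraries (Ttn, Ryr2 and Actn2) and 3 fell (Tnnt2, Tnni3 and Myl2). Of 12 fibroblast markers tested, 4 fell in HF-named libraries (Tcf21, Dpt, Dcn and Gsn) and none rose. The 12 summed to 1068 to 1322 CPM in HF-named libraries against 1353 to 1643 CPM in con-named libraries, with no overlap. Most of that sum was Gsn and Dcn, at means of 661 and 233 of 1190 CPM in HF-named libraries. In con-named libraries these means were 806 and 297 of 1443 CPM. The separation of the sum is therefore largely that of 2 genes. Dcn alone did not overlap between the groups, as was so for 5.36% of all genes, and Gsn did overlap. Of 10 endothelial markers, 3 fell (Kdr, Vwf and Emcn), with summed levels of 1070 to 1607 CPM and 1344 to 1752 CPM in HF-named and con-named libraries. Of 9 pericyte and smooth muscle markers none passed edgeR's test, Rgs5 being nearest at an adjusted p of 0.0504 and at 0.0209 with DESeq2, with summed levels of 1387 to 1582 CPM in HF-named and 1255 to 1424 CPM in con-named libraries. Comp alone of 9 activated fibroblast markers passed, downward, and that list summed to 123 to 212 CPM in HF-named and 101 to 190 CPM in con-named libraries. None of these markers was at 0 in every library. Their part in the collagen values was not tested, and in bulk tissue fewer cells of a type and less RNA per cell cannot be told apart.

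Among fibrillar collagens, 7 of 8 had a log2 fold change below 0, beside 52.7% of all genes. Their median was -0.09, and 1 passed the test. Con-named library 5 was the highest of its group in Col1a1, Col1a2, Col3a1, Col5a1 and Col5a2, so the 7 signs are not separate results. Col1a1, the major chain of collagen I, stood at 59.6 CPM in the lowest HF-named library, 69.4 at the median and 81.5 in the highest, against 65.7, 75.2 and 97.6 CPM in con-named libraries. Library 5 was lowest and library 3 highest of the HF-named group, library 3 was lowest and library 5 highest of the con-named group, and only HF-named library 5 lay below every con-named library. The log2 fold change of Col1a1 was -0.16 (SE 0.09, 95% interval -0.36 to 0.03), with an adjusted p of 0.251. Col1a2, its partner chain, had a lowest, median and highest level of 73.2, 86.0 and 99.7 CPM in HF-named libraries and of 72.1, 86.1 and 113 CPM in con-named libraries. The groups lay over each other, with a log2 fold change of -0.08 (SE 0.10, adjusted p 0.643).

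Col3a1, whose single chain type builds the finer fibres of collagen III, stood at 142, 155 and 204 CPM (lowest, median and highest) in HF-named libraries and at 134, 160 and 238 CPM in con-named libraries. HF-named library 3 and con-named library 5 were the high ones, and the groups overlapped over the whole HF-named range. The log2 fold change was -0.09 (SE 0.12, 95% interval -0.35 to 0.17, adjusted p 0.675), and without con-named library 5 it was 0.02. Col1a1 and Col3a1 thus could not be told from no change here, and their intervals leave out a change of 0.5 on the log2 scale in either direction.

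Collagen V nucleates fibrils and limits their diameter, and 1 of its 3 chains, Col5a3, passed the test. Col5a3 (chromosome 9, 20770050 to 20815067, minus strand, build mm10) stood at 21.4, 24.4 and 28.3 CPM (lowest, median, highest) in HF-named libraries, against 24.8, 31.1 and 33.6 CPM in con-named libraries. HF-named libraries 3, 4 and 5 lay below every con-named library, and con-named libraries 3 and 4 lay within the HF-named range. Its mean was 24.5 ± 2.58 CPM in HF-named and 29.9 ± 3.67 CPM in con-named libraries (SD, n = 6 each). The fit gave -0.29 on the log2 scale (SE 0.09, adjusted p 0.0354). With 1 library left out at a time, the call was kept in 5 of 12 fits. It was lost without HF-named library 3, 4 or 5 (adjusted p 0.0534, 0.0830 and 0.0741) and without con-named library 1, 2, 5 or 6 (0.0587, 0.0654, 0.0723 and 0.0662).

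The main chains of collagen V overlapped between the groups. Col5a1 stood at 34.4, 37.4 and 45.4 CPM (lowest, median, highest) in HF-named and at 35.5, 40.1 and 50.9 CPM in con-named libraries. Its log2 fold change was -0.14 (SE 0.09, adjusted p 0.298). Col5a2 stood at 19.1, 21.7 and 27.6 CPM in HF-named and at 20.2, 24.5 and 29.4 CPM in con-named libraries, with a log2 fold change of -0.09 (SE 0.10, adjusted p 0.602). In both genes a single HF-named library was below every con-named one. Col11a2 and Col27a1, fibrillar chains best known from cartilage, averaged 4.13 ± 0.706 and 6.62 ± 1.27 CPM in HF-named libraries, against 3.70 ± 0.983 and 6.96 ± 1.27 CPM in con-named libraries (SD, n = 6 each), with adjusted p values of 0.605 and 0.771.

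**Figure D3:**
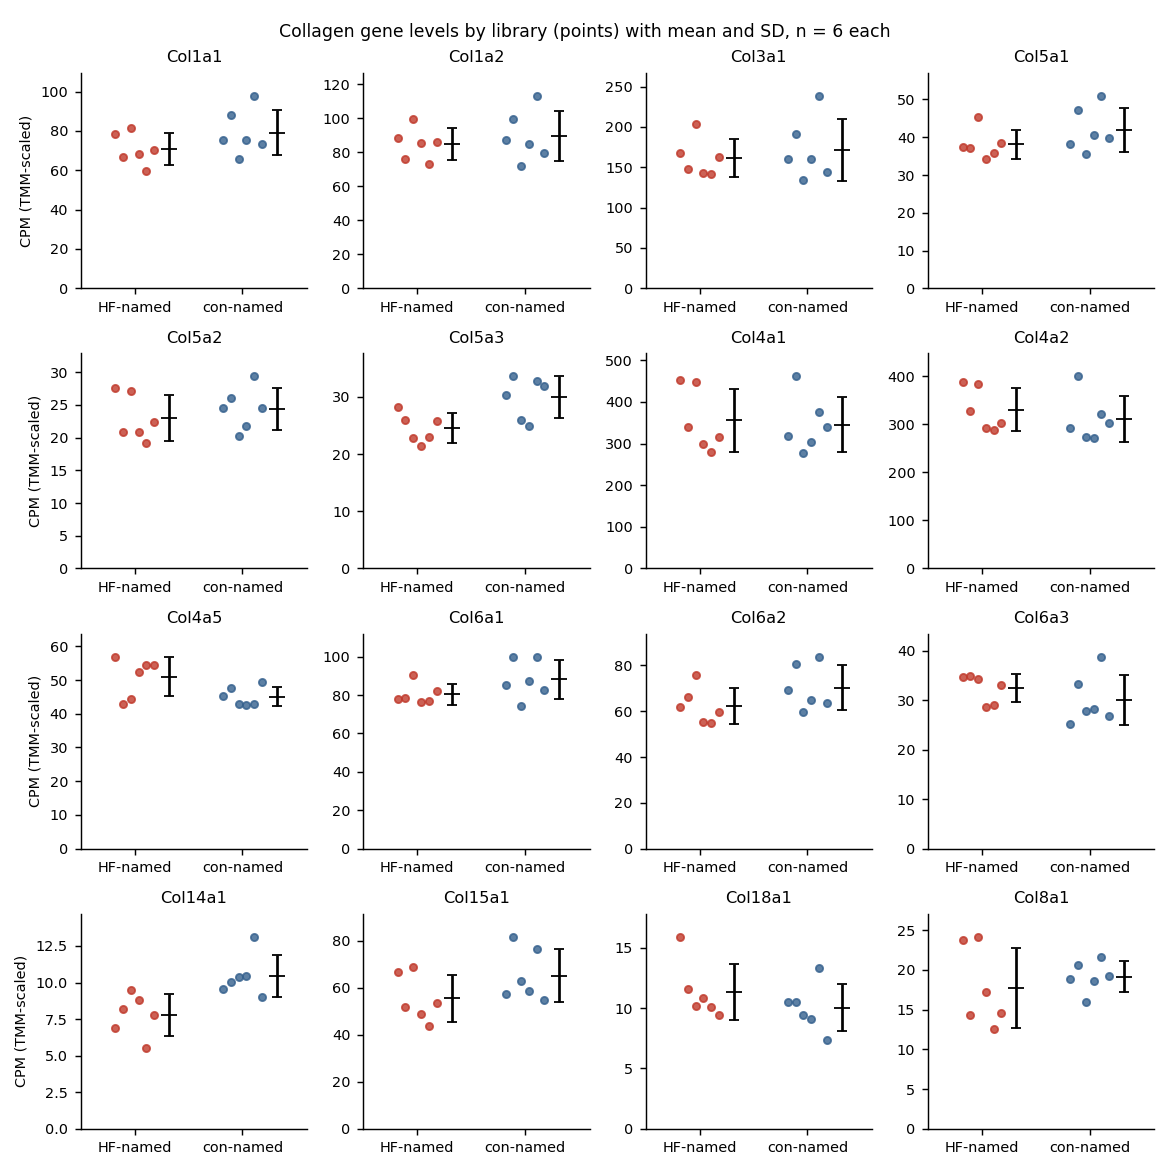
TMM-scaled CPM of 16 collagen genes in each HF-named library (left, red) and each con-named library (right, blue), on axes that start at 0, with the mean and SD (n = 6 each). Con-named library 5 (the fifth blue point) is the highest of its group in most fibrillar panels, and the groups overlap in every panel.

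In the basement membrane class no gene passed the test, and 3 of 6 had a log2 fold change above 0. Col4a1 stood at 279, 328 and 454 CPM (lowest, median, highest) in HF-named libraries and at 277, 329 and 461 CPM in con-named libraries. Col4a2, the chain it assembles with, stood at 289, 316 and 388 CPM in HF-named and at 272, 298 and 400 CPM in con-named libraries. Both genes were high in the same libraries, HF-named 1 and 3 and con-named 2 and 5. Their log2 fold changes were 0.04 (SE 0.13, adjusted p 0.876) and 0.09 (SE 0.10, adjusted p 0.592), and each turned below 0, to -0.07 and -0.02, when scaled by library totals alone. That scaling moved the median of all genes to -0.13, against -0.01 with TMM.

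Col4a5, the X-linked chain mutated in Alport syndrome, had the smallest p of the class. It stood at 42.9, 53.4 and 57.0 CPM (lowest, median, highest) in HF-named and at 42.6, 44.1 and 49.4 CPM in con-named libraries. HF-named libraries 1, 4, 5 and 6 lay above every con-named library, and HF-named libraries 2 and 3 lay among them. Its log2 fold change of 0.18 (SE 0.07, 95% interval 0.03 to 0.33) had an adjusted p of 0.108. Leaving out HF-named library 2 or 3 brought that p to 0.0458 and 0.0430, and leaving out any other library left it between 0.0996 and 0.218. With library totals the log2 fold change was 0.060 (adjusted p 0.566). Its neighbour Col4a6, whose start lies 1342 bases away on the opposite strand, was far lower per length, at 0.131 ± 0.0507 FPKM in HF-named and 0.189 ± 0.0566 FPKM in con-named libraries, where Col4a5 averaged 7.28 ± 0.803 and 6.99 ± 0.497 FPKM in the same order (SD, n = 6 each). The adjusted p of Col4a6 was 0.342. Col4a3 and Col4a4, the chains that join Col4a5 in the kidney's filtration barrier, averaged 3.61 ± 0.777 and 9.58 ± 2.05 CPM in HF-named libraries, against 4.48 ± 0.995 and 10.3 ± 2.29 CPM in con-named libraries (SD, n = 6 each). Their adjusted p values were 0.200 and 0.668. No source used here gives a strand setting for the counting. Since 5.65% of the exon bases of Col4a3 overlap a gene on the opposite strand, how reads there were counted or left out is not known.

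Beaded collagen VI surrounds muscle fibres, and mutations in its chains cause muscular dystrophies. No gene of the class passed, and 3 of 4 had a log2 fold change below 0, beside 52.7% of all genes. Col6a1 stood at 76.3, 78.3 and 90.3 CPM (lowest, median, highest) in HF-named and at 74.1, 86.4 and 100.1 CPM in con-named libraries, with a log2 fold change of -0.14 (SE 0.07, adjusted p 0.207). Col6a2 stood at 54.9, 60.7 and 75.6 CPM in HF-named and at 59.5, 67.1 and 83.9 CPM in con-named libraries, with -0.18 (SE 0.09, adjusted p 0.209). In both, con-named libraries 2 and 5 were the high ones. Col6a3, the long chain of the same trimer, stood at 28.6, 33.7 and 34.8 CPM in HF-named and at 25.2, 28.0 and 38.8 CPM in con-named libraries, with a log2 fold change of 0.11 (SE 0.09, adjusted p 0.493) that turned to -0.01 with library totals. Col6a6, a chain that can take the place of the long one, had the smallest p of the class. It stood at 6.91, 7.93 and 10.05 CPM (lowest, median, highest) in HF-named and at 7.94, 8.67 and 12.4 CPM in con-named libraries, with a log2 fold change of -0.24 (SE 0.12, adjusted p 0.201). HF-named libraries 1, 2 and 3 lay below every con-named library.

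Col14a1 (chromosome 15, 55307750 to 55520803, plus strand, build mm10), the FACIT collagen also called undulin, stood at 5.49 CPM in the lowest HF-named library, 7.99 at the median and 9.50 in the highest, against 9.02, 10.2 and 13.1 CPM in con-named libraries. All HF-named libraries other than library 3 lay below every con-named library, and con-named library 5 stood apart above the rest of its group. The mean was 7.78 ± 1.43 CPM in HF-named and 10.4 ± 1.43 CPM in con-named libraries (SD, n = 6 each). The log2 fold change was -0.43 (SE 0.12, 95% interval -0.68 to -0.17), or 0.744-fold, with an adjusted p of 0.0293. With 1 library left out at a time, the call was kept in 8 of 12 fits. It was lost without HF-named library 1 or 5 (adjusted p 0.0591 and 0.0548) and without con-named library 4 or 5 (0.0515 and 0.0703). Leaving out HF-named library 5, or con-named library 5, left 0 of 30 tested collagen genes past the threshold in edgeR's test, with 4 and 5 of them at an unadjusted p under 0.05.

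All FACIT members averaged under 2 FPKM in both groups, with Col14a1 at 1.07 FPKM in HF-named and 1.55 FPKM in con-named libraries. Col16a1 averaged 7.85 ± 0.784 CPM in HF-named and 7.58 ± 1.59 CPM in con-named libraries, Col20a1 averaged 2.50 ± 0.558 and 2.64 ± 0.407 CPM in the same order, and neither passed (adjusted p 0.845 and 0.820). Col12a1, the closest relative of Col14a1 at the fibril surface, averaged 0.842 ± 0.176 CPM in HF-named and 0.805 ± 0.147 CPM in con-named libraries (adjusted p 0.853). Col22a1, known from tissue junctions of muscle, averaged 1.32 ± 0.269 CPM in HF-named and 1.02 ± 0.167 CPM in con-named libraries (SD, n = 6 each). It was above every con-named library in 5 of 6 HF-named libraries, with a log2 fold change of 0.39 (SE 0.19, adjusted p 0.182) that rests on 242 counts in all. Col9a2 had 78 counts in all.

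In the remaining classes no gene passed. Of the multiplexins, which sit at basement membranes and release endostatin-like fragments, Col15a1 stood at 43.6, 52.6 and 68.8 CPM (lowest, median, highest) in HF-named and at 54.7, 60.7 and 81.8 CPM in con-named libraries. HF-named libraries 2, 4, 5 and 6 lay below every con-named library, and libraries 1 and 3 among them. Its log2 fold change was -0.24 (SE 0.12, 95% interval -0.49 to 0.01, adjusted p 0.201). Col18a1 stood at 9.47, 10.5 and 15.9 CPM in HF-named and at 7.39, 9.93 and 13.3 CPM in con-named libraries, with a log2 fold change of 0.16 (SE 0.14, adjusted p 0.469). HF-named library 1 alone was above every con-named library.

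Col8a1, a short-chain network collagen of vessel walls, stood at 12.5, 15.9 and 24.2 CPM (lowest, median, highest) in HF-named and at 15.9, 19.0 and 21.6 CPM in con-named libraries. Its HF-named values spread to both sides of the con-named ones, with libraries 1 and 3 above all of them and libraries 2, 5 and 6 below. The log2 fold change was -0.11 (SE 0.14, adjusted p 0.643). The transmembrane collagens Col13a1 and Col23a1 had the lowest fitted fold changes among the 30 genes tested. Col23a1 stood at 1.86, 2.25 and 2.70 CPM in HF-named and at 2.12, 3.01 and 4.10 CPM in con-named libraries, with a log2 fold change of -0.51 (SE 0.17) at an adjusted p of 0.0541. HF-named libraries 1, 3 and 4 lay below every con-named library. That p was 0.0473 without HF-named library 6, 0.0165 without con-named library 2 and 0.0455 with DESeq2, and over all alternatives it ran from 0.0165 to 0.119. Col13a1, which helps to form the nerve-muscle synapse, averaged 0.890 ± 0.165 CPM in HF-named and 1.40 ± 0.551 CPM in con-named libraries (SD, n = 6 each). Its fitted change was -0.67 on the log2 scale (SE 0.25, adjusted p 0.0903). Without con-named library 6 it was -0.81 (adjusted p 0.0359), without con-named library 2 it was -0.48 (0.204), and with library totals it was -0.79 (0.0415). Col7a1 of anchoring fibrils and Col28a1 were under 2 CPM in the mean of both groups, with adjusted p values of 0.639 and 0.920. Under the looser minimum that defines the members, Col8a2, Col9a2, Col25a1 and Col26a1 had adjusted p values between 0.154 and 0.701.

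Ratios of 2 collagen genes within a library need no scaling between libraries, and 8 were compared by a 2-sided exact permutation test of the library names. None passed after Benjamini-Hochberg adjustment over the 8. The ratio of Col1a1 to Col3a1 compares RNA, and no protein, fibre or stiffness was measured here. In read counts it was 0.441 ± 0.0293 in HF-named libraries and 0.467 ± 0.0327 in con-named libraries (SD, n = 6 each). HF-named library 3 at 0.399 was the only one below every con-named library. The mean log2 ratio was -0.08 apart, with an exact permutation p of 0.177 and an adjusted p of 0.355, where the smallest p the design allows is 0.00216. Per base of the deposited lengths, the ratio was 0.660 in HF-named and 0.699 in con-named libraries, and 0.414 and 0.439 per base of the principal transcripts.

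**Figure D4:**
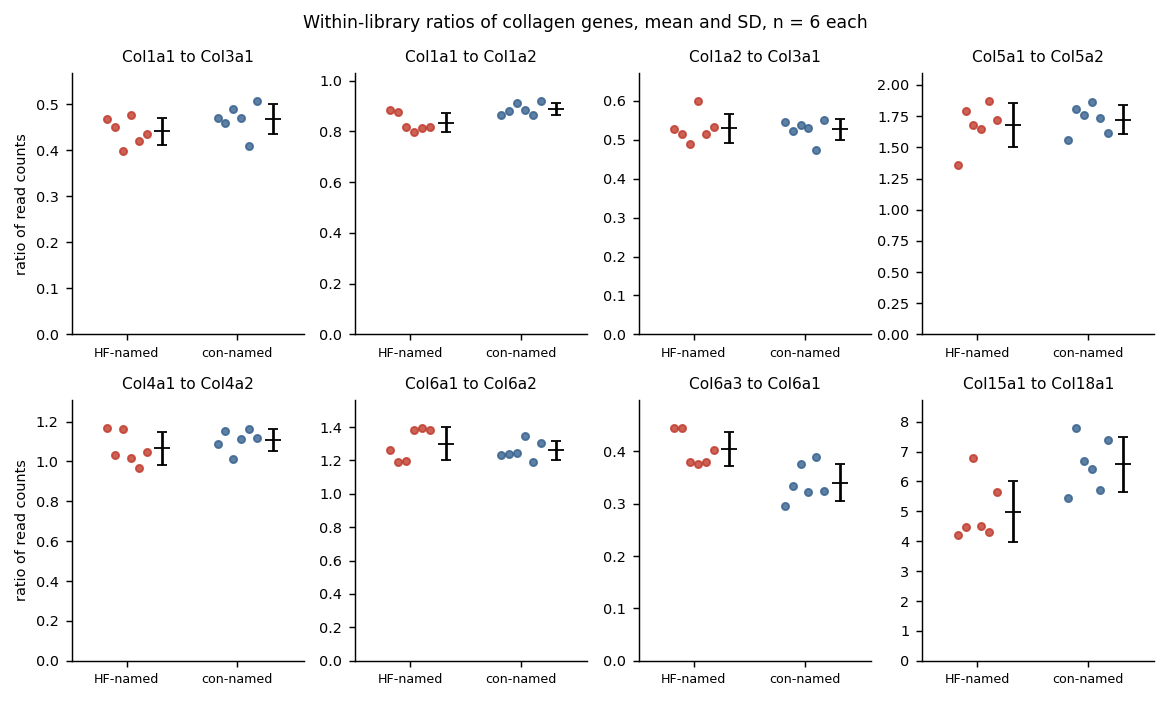
Ratio of read counts of 2 collagen genes within a library, for HF-named libraries (left, red) and con-named libraries (right, blue), on axes from 0, with mean and SD (n = 6 each). The groups overlap in all 8 panels, and HF-named means are lower for Col1a1 to Col1a2 and Col15a1 to Col18a1 and higher for Col6a3 to Col6a1.

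In 3 ratios the exact permutation p was under 0.05 before adjustment, and each reached an adjusted p of 0.0693. Col6a3 to Col6a1 was 0.404 ± 0.0326 in HF-named and 0.340 ± 0.0354 in con-named libraries, a log2 difference of 0.25 (exact permutation p 0.0173), with HF-named libraries 1, 2 and 6 above every con-named library. Without con-named library 5 that difference was 0.29, at an adjusted p of 0.0346. Col15a1 to Col18a1 was 4.99 ± 1.02 in HF-named and 6.58 ± 0.921 in con-named libraries, a log2 difference of -0.41 (exact permutation p 0.0216), with 4 of 6 HF-named libraries below every con-named library. Col1a1 to Col1a2 was 0.835 ± 0.0368 in HF-named and 0.887 ± 0.0233 in con-named libraries, a log2 difference of -0.09 (exact permutation p 0.0260), again with 4 of 6 HF-named libraries below. The ratio of the partner chains Col4a1 and Col4a2 was 1.07 ± 0.0820 in HF-named and 1.11 ± 0.0544 in con-named libraries, and that of Col6a1 and Col6a2 was 1.30 ± 0.0978 and 1.26 ± 0.0555 in the same order. For these and for Col5a1 to Col5a2 and Col1a2 to Col3a1, adjusted p values ran from 0.471 to 0.926.

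Of 86 listed genes that make, export, process, bind, degrade or induce collagen, 80 were tested and 70 did not pass. In HF-named libraries 7 rose and 3 fell, beside 8.28% higher and 5.05% lower of all genes tested. These 10 are 12.5% of those tested, near the 13.3% of all genes. The median log2 fold change over the 80 was -0.02. The split depends on the scaling, since with library totals 2 were higher and 16 lower. Of 19 tested genes of hydroxylation, glycosylation and folding, 2 rose and none fell. P4ha1, a catalytic subunit of the prolyl hydroxylase that stabilises the triple helix, stood at 41.2, 47.3 and 53.2 CPM (lowest, median, highest) in HF-named and at 28.1, 35.1 and 37.7 CPM in con-named libraries. The groups did not overlap, as was so for 5.36% of all genes, and the log2 fold change was 0.46 (SE 0.07, adjusted p 0.00138). Tmem38b, an ion channel of the endoplasmic reticulum whose loss causes brittle bones, rose by a log2 fold change of 0.30 (SE 0.08, adjusted p 0.0228). Of 8 genes of procollagen export, Mia2 and Sec31a, parts of the machinery at endoplasmic reticulum exit sites, rose by 0.19 (SE 0.05, adjusted p 0.0208) and 0.15 (SE 0.05, adjusted p 0.0391) on the log2 scale. Of 13 genes of propeptide removal and cross-linking, Loxl4, a lysyl oxidase, rose by 0.82 (SE 0.24, adjusted p 0.0310), at 1.19 ± 0.316 CPM in HF-named and 0.669 ± 0.176 CPM in con-named libraries.

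The calls in the next 4 lists stand beside 8.28% higher and 5.05% lower of all genes tested. Of 8 fibril partners tested, Dcn and Comp fell and none rose. Dcn, decorin, a proteoglycan that binds collagen I fibrils, stood at 202, 235 and 259 CPM (lowest, median, highest) in HF-named libraries and at 279, 282 and 346 CPM in con-named libraries, with no overlap. Its log2 fold change was -0.35 (SE 0.07, adjusted p 0.00519). Comp, which assembles collagen fibrils, fell by a log2 fold change of -1.19 (SE 0.33, adjusted p 0.0238), at 1.64 ± 0.627 CPM in HF-named and 3.70 ± 2.16 CPM in con-named libraries. Of 9 receptors, Itgb1 and Ddr1 rose and none fell. Itgb1, the shared beta subunit of the collagen-binding integrins, rose by 0.24 (SE 0.05, adjusted p 0.00577) with no overlap between the groups. Ddr1, a collagen-binding receptor kinase, rose by 0.24 (SE 0.08, adjusted p 0.0443). A lack of overlap, as in Dcn and Itgb1, was found in 5.36% of all genes tested. Of 11 genes of degradation, Mmp14, a membrane-bound collagenase, fell by a log2 fold change of -0.38 (SE 0.09, adjusted p 0.0131). None of 12 inducers of collagen transcription passed. Smad2 among them did not overlap either, at 14.61 to 16.05 CPM in HF-named and 13.13 to 14.60 CPM in con-named libraries (edgeR, adjusted p 0.125). The inducer with the smallest p, Tgfb1, stood at 18.5 ± 2.07 CPM in HF-named and 22.4 ± 4.25 CPM in con-named libraries (SD, n = 6 each, adjusted p 0.105). Tgfb1 passed without HF-named library 3 (0.0487) or con-named library 1 (0.0436), and over all alternatives its adjusted p ran from 0.0436 to 0.210.

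P4ha1, Dcn, Itgb1 and Mmp14 stayed past the threshold in all 12 fits with a library left out. With library totals, 5 of the 7 higher genes lost the call: Itgb1 at a log2 fold change of 0.12 (adjusted p 0.0569), Tmem38b at 0.19 (0.0783), Mia2 at 0.075 (0.230), Ddr1 at 0.12 (0.316) and Sec31a at 0.038 (0.557). P4ha1, Loxl4 and the 3 lower genes kept it. Mia2 stayed in 11, with an adjusted p of 0.0501 without HF-named library 4. Comp did in 9 and was lost without HF-named library 4 or 5 (0.0525 and 0.0554) or con-named library 5 (0.0517). Tmem38b did in 8 and was lost without HF-named library 4 or 5 (0.0563 and 0.0572) or con-named library 5 or 6 (0.0551 and 0.0508). Loxl4, Sec31a and Ddr1 did in 5, 4 and 3 of the 12, with the highest adjusted p at 0.0753 without con-named library 5, 0.102 without HF-named library 5 and 0.110 without HF-named library 5. The 10 calls became 5 without HF-named library 5 or con-named library 5, and 6 without HF-named library 4.

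**Figure D5:**
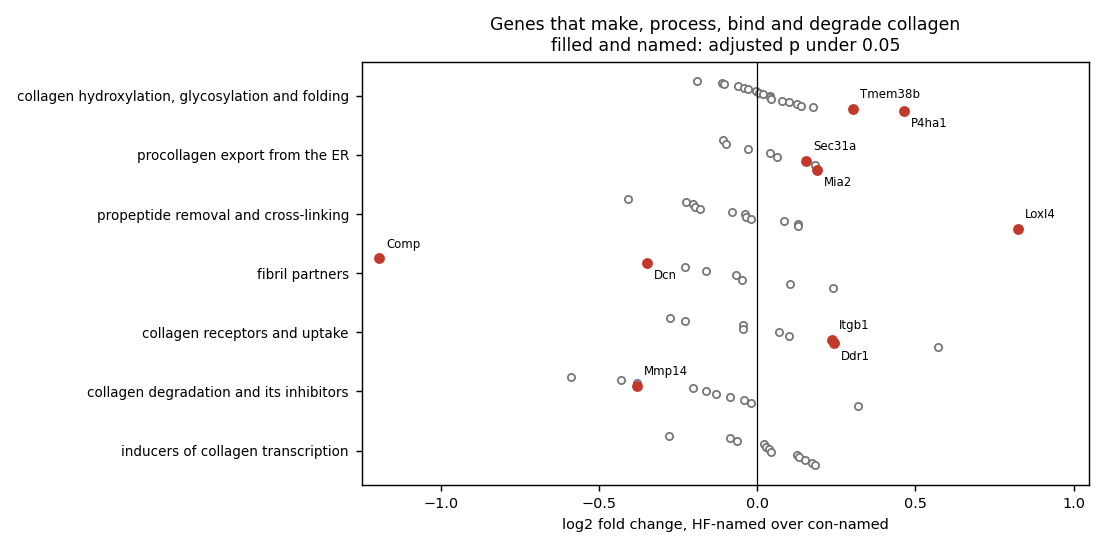
Log2 fold change, HF-named over con-named, of the 80 tested genes that make, export, process, bind, degrade or induce collagen, by list. Filled and named points are the 10 genes with an adjusted p under 0.05, 7 above 0 and 3 below 0.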

How the data were processed

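Poly(A)-selected RNA of mouse ventricle was sequenced in 12 libraries, 6 in each group, grouped by the library name in the labels. Reads were trimmed, aligned and counted with cutadapt 1.15, HISAT2 2.0.5 and HTSeq 0.9.1 on build mm10, per the submitters' processing notes. Annotation release and strand setting: not given in the sources used here. The authors deposited whole-number counts per gene, FPKM computed from those counts, the gene length and the library total, and their own log2 fold changes and adjusted p-values. A gene's FPKM equals its count over the deposited length and library total, tested on 10721 genes. For 33 of the 34 members that length equals the union of exons in GENCODE M21.

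Counts were tested with edgeR 4.0.16 (filterByExpr, TMM, glmQLFit, glmQLFTest, 2-sided, R 4.3.3) over 15114 genes with group as the only term. Benjamini-Hochberg adjustment ran over all of them, at a threshold of 0.05. The 503 unnamed features held 0.568% of counts and were not removed before the filter. The 15114 genes therefore include any of them that passed it. The alternatives were other scalings and filters, DESeq2 1.42.0, limma-voom (limma 3.58.1), a replicate block, deposited FPKM and medians for ratios, and each library left out. The fit was tested on simulated counts with known changes, in 49 to 50 tested genes at each fold. It recovered 40% of the 1.25-fold, 60% of the 1.5-fold, 89.8% of the 2-fold and 100% of the 4-fold changes. Of its 152 calls, 9 were false. The main fit made 2016 calls, so the same adjusted threshold was a stricter cutoff in the simulation than in the data. The shares recovered therefore need not hold for these data. Changes as small as most of those fitted for the collagen genes can still be missed, at a rate that was not measured.

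The members, gene lists, ratios and tests were chosen with earlier results of these data known. Values in every library are given for the main chains, for members past the threshold and for the smallest p of each class. Of each pathway list the genes past the threshold are named, up to 3, or the 1 of smallest p. Smad2 is named beside them for its lack of overlap, after its values were seen. Of each marker list the 2 most abundant are Dcn and Gsn (fibroblast), Postn and Acta2 (activated fibroblast), Cdh5 and Fabp4 (endothelial), Rgs5 and Abcc9 (pericyte and smooth muscle), Myh6 and Tnnt2 (cardiomyocyte), Lyz2 and Lgmn (macrophage), Sox9 and Cytl1 (valve interstitial), Myl4 and Nppa (atrial) and Hba-a1 and Hbb-bs (erythroid), with Wt1 the only epicardial gene tested and no adipocyte gene tested. Past the threshold, beside 8.28% higher and 5.05% lower of all genes, were 3 higher and 3 lower of 9 cardiomyocyte genes, 3 lower of 10 macrophage genes, 1 higher of 4 Schwann cell genes, 1 lower of 3 valve genes, 0 of 2 atrial genes and 1 higher of 5 erythroid genes. The Schwann cell gene past it was Kcna1 (adjusted p 0.0107 from edgeR, 1.00 ± 0.23 SE on the log2 scale), named after its values were seen, and the most abundant genes of that list are not reported here.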

Additional observations from a re-analysis of the deposited data

Results flagged for a closer look

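Over 76 groups of 6 values (30 collagen genes and 8 ratios in each group of libraries), 4 held a library whose gap to its neighbour was larger than Dixon's 95% limit for its group's range. Chance gives about 1 in 20 such groups. Col12a1 was low in HF-named library 2, at 0.506 CPM. Col14a1 was high in con-named library 5, at 13.1 CPM, and without that library its adjusted p was 0.0703. Col18a1 was high in HF-named library 1, at 15.9 CPM, and Col4a3 was high in the same library, at 5.11 CPM.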

How the results depend on the processing

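The 2 collagen genes past the threshold became 4 with library totals in place of TMM (Col13a1 and Col23a1 added), 3 with DESeq2 (Col23a1 added) and 0 to 3 when 1 library was left out. With the replicate block, 1 was left, Col5a3, with Col14a1 at an adjusted p of 0.0714. Libraries of equal number were not treated as pairs in the main fit, because no label says that they are. Their deviations correlated at -0.161 to 0.0900, and 1 of 6 numbers correlated best with its own. Such correlations cannot show whether the libraries were paired by a shared day or cage. The 10 pathway genes became 18 with library totals (2 higher and 16 lower, with 5 of the first 10 kept), 6 without a filter, 3 with the replicate block (P4ha1, Dcn and Itgb1, with Mmp14 at an adjusted p of 0.0515) and 5 to 15 when 1 library was left out. All genes past the threshold numbered 485 higher and 2590 lower with library totals, against 1252 and 764 with TMM, and 1131 in all with the replicate block, against 2016. The ratio of Col1a2 to Col3a1, a log2 difference of 0.01, was -0.035 with medians and -0.030 to 0.029 with 1 library left out, and that of Col5a1 to Col5a2 ran from -0.077 to 0.016. Col6a3 to Col6a1 ran from 0.21 to 0.29. Col1a1 to Col3a1 ran from -0.12 to -0.05.

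Values that turned sign with library totals were Col12a1 (-0.044), Col16a1 (-0.074), Col28a1 (-0.084), Col4a1 (-0.071), Col4a2 (-0.022), Col6a3 (-0.010), Abcc9 (-0.0086) and Lgmn (-0.090). With 1 library left out, Col16a1 ran from -0.015 to 0.126, Col20a1 from -0.136 to 0.015, Col28a1 from -0.053 to 0.144, Col3a1 from -0.168 to 0.017, Col4a1 from -0.041 to 0.135, Lgmn from -0.041 to 0.055 and Myl4 from -0.24 to 0.39. The causes were not tested. Members under 1000 counts in all, 14 of 34, have the widest intervals, and counts bound counting error only.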
